A study of Mus musculus with 6 samples.

Results

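The contractile genes of smooth muscle cells and myofibroblasts were examined in newborn mouse dermal fibroblasts that had been kept in adipocyte differentiation medium for 14 days. The set was the 10 named genes Acta2, Actg2, Tagln, Cnn1, Myh11, Myl9, Mylk, Tpm1, Tpm2 and Lmod1, found by gene symbol in a table of 17924 genes. All 10 were in the table, and all 10 were among the 16251 genes that were tested. All cells carried Pdgfra-Cre on a C57BL/6J background. Their Nelfb alleles were fl/fl in the Nelfb-/- group and either fl/wt or wt/wt in the CTL group. Cre driven by Pdgfra acts in fibroblasts and adipocyte precursors and leaves Nelfb intact in cells that never expressed Pdgfra. Each group had 3 libraries of total RNA described as biological replicates. Neither which control genotype a CTL library had nor whether cells of several pups were pooled is given in the sources used here, so that p-values measure the spread between these libraries.

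Smooth muscle cells and myofibroblasts contract by sliding actin filaments along myosin filaments. Contraction starts when the kinase encoded by Mylk, activated by calcium, phosphorylates the regulatory light chain of myosin. Most genes of this machinery are known targets of serum response factor (SRF), which binds the CArG box with its partners myocardin (Myocd) and the myocardin-related factors Mrtfa and Mrtfb. Dermal fibroblasts take up part of this programme, with Acta2 as its usual marker, when they turn into myofibroblasts, and its expression is commonly low in mature fat cells.

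Levels are given in CPM (a gene's share of a library's reads, scaled to 1e+06), and the libraries held 1.72e+07 to 2.94e+07 reads on the genes of the table. Wherever 3 values are listed for a group, they stand in the order of replicates 1, 2 and 3. Nelfb lay between 17.3 and 22.3 CPM in the CTL libraries and between 3.90 and 5.55 CPM in the Nelfb-/- libraries, a difference of -1.99 on the log2 scale (SE 0.22, limma, adjusted p = 0.0050). The samples are labelled as adipocytes. Markers of fat cells were present in every library, with Adipoq between 488 and 1857 CPM and Plin1 between 286 and 1196 CPM. On the first 2 principal components, which held 59.9% and 27.7% of the variance, the second placed CTL replicates 1 and 2 and Nelfb-/- replicate 1 on the side opposite to CTL replicate 3 and Nelfb-/- replicates 2 and 3. The mixture of cells in each library is not known, and fewer cells of a type cannot be told apart from less RNA per cell.

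The promoters of the members were searched for the site of SRF. RefSeq promoters (GRCm38.p6, the build of the files) were at hand for 7 members. The 250 bases before each start were searched for the CArG box, a 10-base site of CC, 6 bases that are A or T, and GG. This pattern is its own reverse complement, so that searching 1 strand covers both, although a single site need not read the same on both. An exact CArG box was found for 1 member, Myl9, and in 1.47% of all 32851 promoters. Allowing 1 of its 6 central bases to be other than A or T gave 2 members, Acta2 and Myl9, each with 2 boxes, and 8.59% of all promoters. They are printed with 10 bases on each side, in the direction of transcription, with the box in capitals, because they are the matches found, and a match is a description of the sequence and no evidence of binding. The printed stretches of Acta2 lie on the minus strand at chr19:34255438-34255467 and chr19:34255388-34255417, ahead of the RefSeq start, yet within the longer first exon that GENCODE draws. Those of Myl9 lie on the plus strand at chr2:156775293-156775322, which holds the exact box, and chr2:156775355-156775384, both outside annotated exons.
Acta2, distal: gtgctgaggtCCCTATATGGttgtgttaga
Acta2, proximal: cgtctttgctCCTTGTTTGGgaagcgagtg
Myl9, distal: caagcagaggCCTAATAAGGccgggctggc
Myl9, proximal: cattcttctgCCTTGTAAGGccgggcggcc
No such match lay in these windows of Cnn1, Tpm1, Tpm2, Lmod1 and Mylk, which says only that the letters are not in the bases searched. The Mylk window (chr16:34784700-34784999) lies within the annotated gene, at an internal start.

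With a threshold of 0.05 for the adjusted p and 2-fold for the change (limma, Benjamini-Hochberg over all genes tested), 0 of the 10 members passed, beside 11.2% of all genes, of which 7.58% were higher and 3.64% lower in Nelfb-/- cells. At an unadjusted p under 0.05 the count was 3 of 10 (Tpm1, Lmod1 and Myh11) beside 32.5% of all genes. With no limit on the fold change, 1 member passed, Lmod1, which was lower in Nelfb-/- cells, beside 15.8% of all genes, 9.96% higher and 5.83% lower. The members had a median log2 fold change of -0.19, with 7 negative and 3 positive values, and the median over all genes tested was 0.068. In 4 of the 10 genes the libraries of the 2 groups did not overlap, beside 38.1% of all genes. This count was close to the background.

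**Figure D1:**
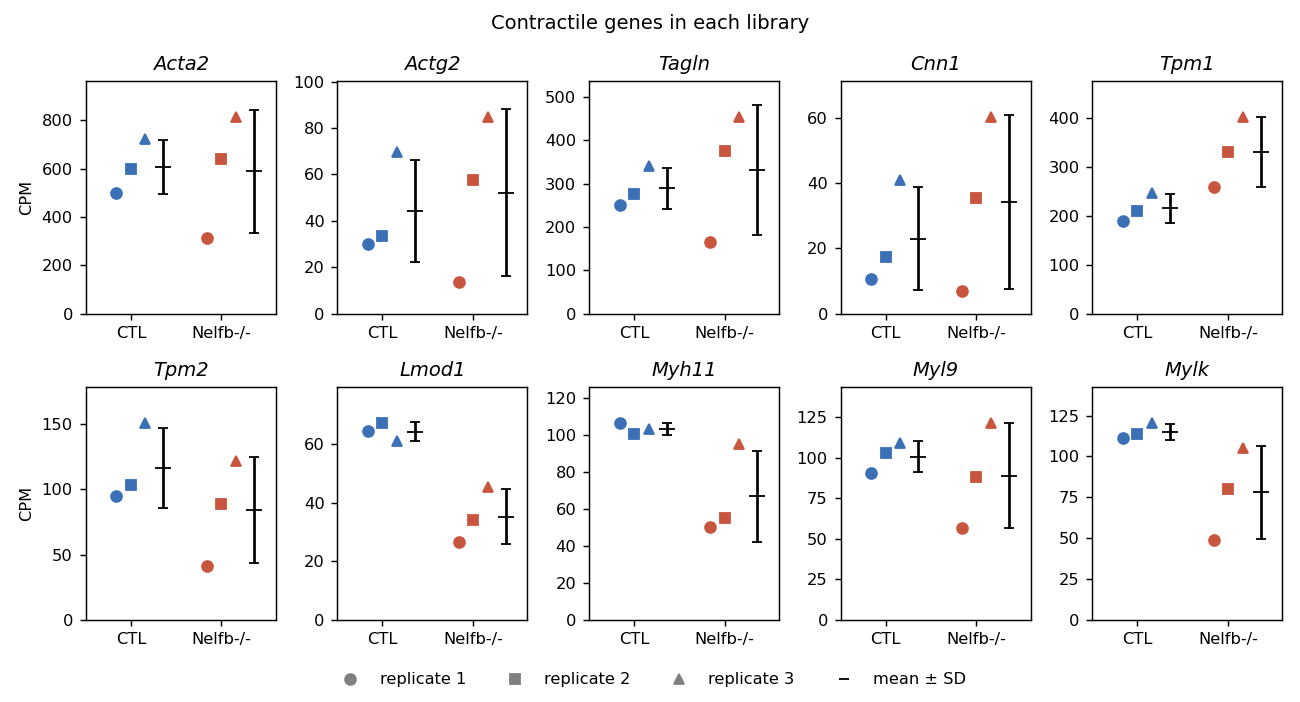
CPM of each of the 10 contractile genes in the 3 CTL libraries (blue) and the 3 Nelfb-/- libraries (red), with marker shapes for replicates 1, 2 and 3 and the mean ± SD in black, each axis starting at 0. Nelfb-/- replicate 1 is the lowest of the 6 libraries in 9 of the 10 genes, and the groups do not overlap for Tpm1, Lmod1, Myh11 and Mylk.

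Among the actins, Acta2 encodes smooth muscle alpha-actin, the classic myofibroblast marker (ENSMUSG00000035783, chromosome 19 from 34241090 to 34255590, mm10). It was measured at 499, 597 and 722 CPM in the CTL libraries, against 312, 638 and 815 CPM in the Nelfb-/- libraries. The Nelfb-/- libraries thus held both the lowest and the highest value, and the CTL values lay between them. Acta2 differed by -0.14 on the log2 scale (SE 0.38, limma, adjusted p = 0.83), with a 95% interval of the fold from 0.488 to 1.70. This interval holds both no change and a decrease of 2-fold. Without Nelfb-/- replicate 1 the log2 fold change of Acta2 was 0.27 (limma, adjusted p = 0.43).

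Actg2 encodes smooth muscle gamma-actin, best known from the gut wall (ENSMUSG00000059430, chromosome 6 from 83512905 to 83536265). It had 29.99, 33.3 and 69.5 CPM in the CTL libraries, against 13.8, 57.7 and 85.0 CPM in the Nelfb-/- libraries. CTL replicate 3 lay with Nelfb-/- replicates 2 and 3, and the groups overlapped throughout. Actg2 had a log2 fold change of -0.0099 (limma, SE 0.70, adjusted p = 0.99), whose 95% interval ran from a fold of 0.313 to 3.15. It was 0.77 when Nelfb-/- replicate 1 was omitted and 0.37 when CTL replicate 3 was omitted.

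The actins are close copies of each other, and the ends of their coding sequences show how far reads can tell them apart. Over 1128 coding bases compared without gaps (GENCODE vM21), Actg2 was 84.0% identical to Acta2, and the nonmuscle actin gene Actb was 83.0% identical. The last 60 coding bases are printed with the bases that differ from Acta2 in capitals.
Acta2: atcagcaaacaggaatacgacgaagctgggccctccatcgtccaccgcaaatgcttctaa
Actg2: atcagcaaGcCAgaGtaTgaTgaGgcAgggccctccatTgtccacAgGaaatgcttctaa
Actb: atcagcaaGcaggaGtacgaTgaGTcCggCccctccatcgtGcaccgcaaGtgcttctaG
In these 60 bases Actg2 differed from Acta2 at 11 positions and Actb at 10. Of all windows of 50 bases in the longest coding transcript, 0.352% were shared with another annotated gene for Acta2, 0.4% for Myh11 and 0% for the other 8 members. Exact sharing of reads between the members and their relatives was therefore possible for few positions at this length.

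Among the proteins that bind actin filaments, Tagln encodes transgelin, an early marker of smooth muscle and myofibroblasts (ENSMUSG00000032085, chromosome 9 from 45929619 to 45936058). It had 251, 276 and 341 CPM in the CTL libraries, against 165, 375 and 455 CPM in the Nelfb-/- libraries. Nelfb-/- replicate 1 lay below and Nelfb-/- replicates 2 and 3 above all CTL libraries. Tagln had 0.084 as its log2 fold change (SE 0.39, limma, adjusted p = 0.90), which ran from -0.21 without Nelfb-/- replicate 3 to 0.53 without Nelfb-/- replicate 1. On the opposite strand, 67.9% of the exonic bases of Tagln overlap Pcsk7 and Gm48529, and whether reads were counted by strand is not given in the sources used here. Pcsk7, which encodes a proprotein convertase, had 22.2 to 24.5 CPM in CTL and 32.3 to 33.8 CPM in Nelfb-/- cells.

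Cnn1 encodes calponin 1, an inhibitor of the myosin ATPase that marks differentiated smooth muscle (ENSMUSG00000001349, chromosome 9 from 22099216 to 22109630). Its values were 10.8, 17.3 and 41.0 CPM in the CTL libraries, against 7.07, 35.4 and 60.5 CPM in the Nelfb-/- libraries. The highest Nelfb-/- library was 8.56-fold above the lowest, the widest spread within a group among the members, and the highest CTL library was 3.80-fold above the lowest. For Cnn1 it was 0.33 (log2, SE 0.86, limma, adjusted p = 0.82), and its 95% interval ran from a fold of 0.303 to 5.20. Changes well beyond 2-fold in either direction were thus not excluded for Cnn1, and its log2 fold change ran from -0.31 without Nelfb-/- replicate 3 to 1.23 without Nelfb-/- replicate 1. Its lowest value, 7.07 CPM, stood for about 149 reads.

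Tpm1 and Tpm2 encode tropomyosins, the coiled coils that lie along actin filaments, and both genes also serve striated muscle through other isoforms. The values are per gene and do not separate isoforms of these genes or of other tropomyosin genes. Tpm1 (ENSMUSG00000032366, chromosome 9 from 67022590 to 67049406) measured 189, 210 and 247 CPM in the CTL libraries, against 260, 330 and 402 CPM in the Nelfb-/- libraries. All 3 Nelfb-/- libraries exceeded the highest CTL library, which held for 22.0% of all genes tested and for no other member. On the log2 scale Tpm1 was 0.60 higher (SE 0.21, limma, adjusted p = 0.099), and the 95% interval of the fold was 1.08 to 2.15. Over the omissions of a library, Tpm1 ran from 0.45 (Nelfb-/- replicate 3 omitted, limma, adjusted p = 0.30) to 0.77 (Nelfb-/- replicate 1 omitted, limma, adjusted p = 0.041), the latter being the omission that brought the adjusted p under 0.05.

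Tpm2 (ENSMUSG00000028464, chromosome 4 from 43514711 to 43523765) measured 94.6, 103 and 151 CPM in the CTL libraries, against 41.6, 88.8 and 122 CPM in the Nelfb-/- libraries. Nelfb-/- replicates 1 and 2 lay below all CTL libraries, and Nelfb-/- replicate 3 lay among them. Tpm2 differed by -0.57 on the log2 scale (SE 0.41, limma, adjusted p = 0.38). This became -0.13 with Nelfb-/- replicate 1 omitted, -0.91 with Nelfb-/- replicate 3 omitted and -0.37 when CTL replicate 3 was left out. The balance between the 2 tropomyosins can be read within a library, where the scaling between libraries has no part. Tpm1 over Tpm2 in CPM was 1.997, 2.03 and 1.64 in the CTL libraries, against 6.24, 3.72 and 3.30 in the Nelfb-/- libraries. The ratio was higher in all 3 Nelfb-/- libraries than in any CTL library (exact two-sided permutation test, p = 0.1, the smallest that 3 against 3 libraries allow), and it was chosen after the values had been seen.

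Lmod1 encodes leiomodin 1, which starts new actin filaments in smooth muscle (ENSMUSG00000048096, chromosome 1 from 135324807 to 135368065). It had 64.7, 67.4 and 61.1 CPM in the CTL libraries, against 26.5, 34.2 and 45.3 CPM in the Nelfb-/- libraries. The CTL libraries differed by at most 1.10-fold, and every Nelfb-/- library lay below them, as for 16.1% of all genes tested. Lmod1 fell to 0.536 of the CTL level (-0.90 on the log2 scale, SE 0.21, limma, adjusted p = 0.034), and the 95% interval of the fold was 0.380 to 0.758. Its adjusted p rose above 0.05 without CTL replicate 1 (0.11), CTL replicate 2 (0.12) or Nelfb-/- replicate 2 (0.10) in limma. Without Nelfb-/- replicate 3 the change exceeded 2-fold, at -1.10 on the log2 scale (limma, adjusted p = 0.049).

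The motor of the filaments was measured by 3 genes. Myh11 encodes the smooth muscle myosin heavy chain, the most specific marker of mature smooth muscle (ENSMUSG00000018830, chromosome 16 from 14194535 to 14291372). It had 106, 100.1 and 103 CPM in the CTL libraries, against 50.2, 54.8 and 95.02 CPM in the Nelfb-/- libraries. The groups did not overlap, although Nelfb-/- replicate 3 came close to the CTL libraries. Myh11 differed by -0.69 on the log2 scale (SE 0.25, limma, adjusted p = 0.11), with a 95% interval of the fold from 0.410 to 0.939. Over the omissions of a library, Myh11 ran from -0.97 (Nelfb-/- replicate 3 omitted, limma, adjusted p = 0.047) to -0.51 (Nelfb-/- replicate 1 omitted, limma, adjusted p = 0.18), the former being the omission that brought the adjusted p under 0.05.

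Mylk encodes the myosin light chain kinase (ENSMUSG00000022836, chromosome 16 from 34745210 to 35002420). Its values were 111, 114 and 121 CPM in the CTL libraries, against 48.6, 80.0 and 105 CPM in the Nelfb-/- libraries. All Nelfb-/- libraries lay below all CTL libraries, by -0.63 on the log2 scale (SE 0.28, limma, adjusted p = 0.17). Without Nelfb-/- replicate 1 the difference in Mylk was -0.33. On the opposite strand, 6.85% of the exonic bases of Mylk overlap E130310I04Rik and Gm21691. Myl9, the regulatory light chain that this kinase phosphorylates (ENSMUSG00000067818, chromosome 2 from 156775420 to 156781658), measured 90.4, 103 and 109 CPM in the CTL libraries, against 56.8, 88.4 and 122 CPM in the Nelfb-/- libraries. The Myl9 groups overlapped, with -0.24 on the log2 scale (SE 0.28, limma, adjusted p = 0.59). Without Nelfb-/- replicate 1 that of Myl9 was 0.046.

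**Figure D2:**
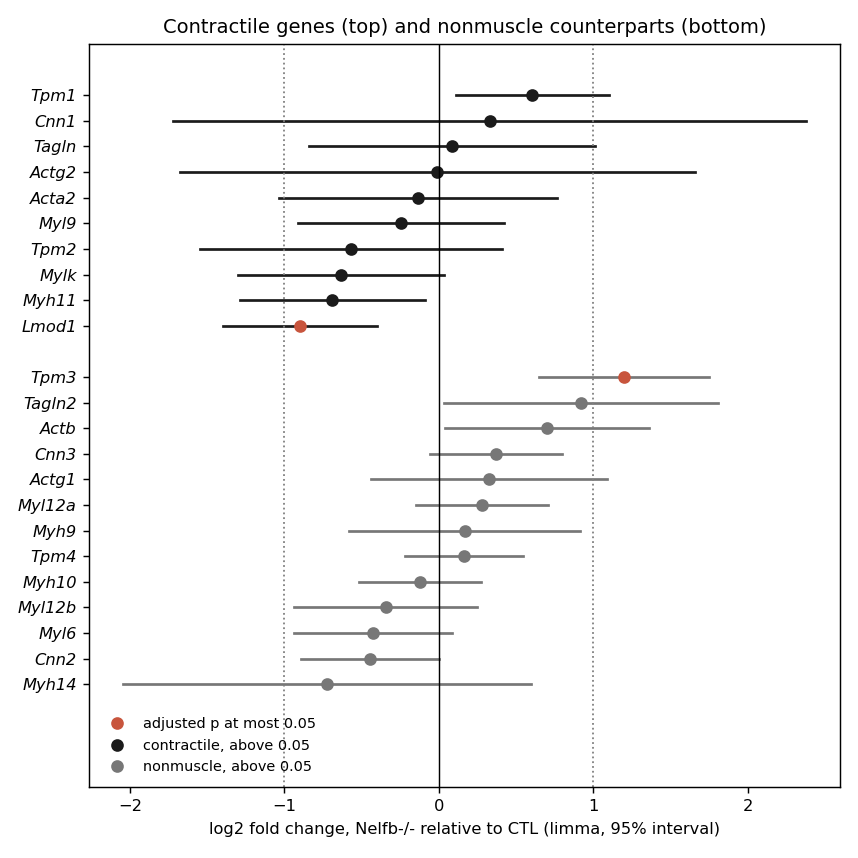
Log2 fold change in Nelfb-/- relative to CTL cells with its 95% interval (limma) for the 10 contractile genes and 13 nonmuscle counterparts, with dotted lines at 2-fold. Lmod1 at -0.90 and Tpm3 at 1.20 are the genes in red, whose adjusted p does not exceed 0.05, and the widest contractile interval is that of Cnn1.

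Compared per length, as CPM per kb of exons, Acta2 was the most abundant member in both groups, at 276 ± 51.0 (SD, n = 3) in CTL and 268 ± 116 in Nelfb-/- cells. It was followed by Tagln (145 ± 23.5 and 167 ± 75.6) and Myl9 (86.7 ± 8.15 and 76.6 ± 28.0). The CTL ranges of these 3 genes did not overlap with each other or with those of the next. Tpm2, Tpm1 and Actg2 came next in CTL cells, at 40.0 ± 10.5, 33.2 ± 4.56 and 28.4 ± 14.1 CPM per kb, and neighbours in this order overlapped. Lmod1, Myh11 and Mylk followed at 16.3 ± 0.810, 13.6 ± 0.420 and 10.2 ± 0.435 CPM per kb. Cnn1 was lowest in CTL at 8.42 ± 5.81 CPM per kb, with a range that overlapped Mylk, whereas Mylk had the lowest mean in Nelfb-/- cells at 6.92 ± 2.51 CPM per kb, with a range that overlapped those of Myh11, Lmod1 and Cnn1. In the order of the means, Tpm1 moved from place 5 in CTL to place 4 in Nelfb-/- cells, and Tpm2 from place 4 to place 6.

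The members varied more among the Nelfb-/- libraries than among the CTL libraries. In all 10 genes, Nelfb-/- replicate 1 was the lowest and Nelfb-/- replicate 3 the highest of the 3 Nelfb-/- libraries, an order found in 16.1% of all genes tested. The highest Nelfb-/- library was 2.39-fold above the lowest in the median member, with a range over the members from 1.55 to 8.56, beside 1.47-fold in the median of all genes tested. In CTL the corresponding value was 1.34-fold for the members and 1.47-fold for all genes. Over all 6 libraries, Nelfb-/- replicate 1 was the lowest in 9 of the 10 members and in 20% of all genes. Nelfb-/- replicate 3 was the highest in 6 members and in 11.5% of all genes. CTL replicate 3 was the highest CTL library in 8 members, the exceptions being Lmod1 and Myh11.

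Summed over the 10 members, the level was 1447, 1621 and 1966 CPM in the CTL libraries, against 981, 1782 and 2307 CPM in the Nelfb-/- libraries. Both the lowest and the highest sum were therefore those of Nelfb-/- libraries. Acta2 made up between 31.8% and 36.8% of the sum in each library. The members included a group with steady CTL values that was lower in all Nelfb-/- libraries (Lmod1, Myh11 and Mylk, with the highest CTL library at most 1.10-fold above the lowest) and a group in which CTL replicate 3 and Nelfb-/- replicates 2 and 3 lay together above the others (Acta2, Actg2, Cnn1 and Tagln), with Tpm1, Tpm2 and Myl9 in neither, a division made after the values had been seen.

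**Figure D3:**
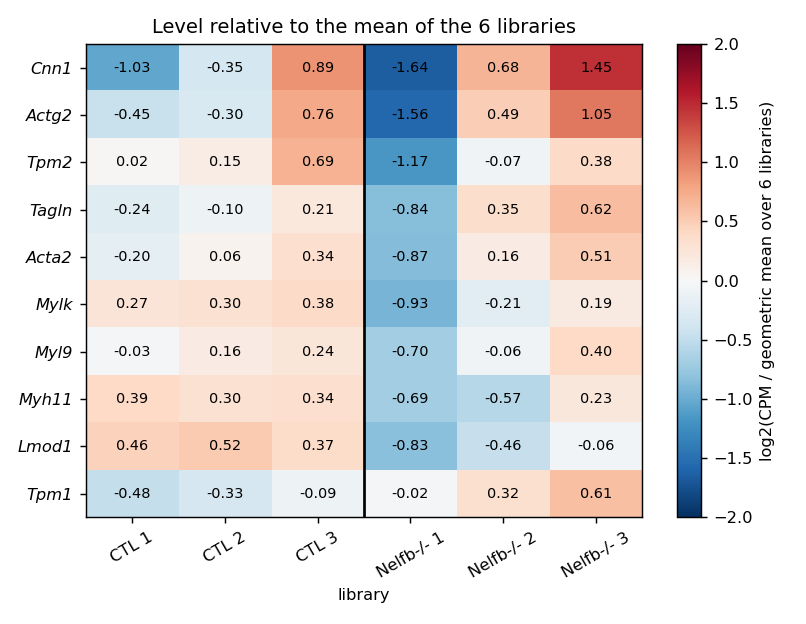
Heat map of log2(CPM divided by the geometric mean of the 6 libraries) for each contractile gene (rows) in each library (columns), with the value written in each cell, blue for low and red for high. The column of Nelfb-/- replicate 1 is negative for all 10 genes, from -1.64 for Cnn1 to -0.02 for Tpm1, and Lmod1 is negative in all 3 Nelfb-/- libraries.

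The nonmuscle counterparts encode actins, myosin chains, tropomyosins, calponins and a transgelin that are not particular to muscle. Of 13 such genes, 1 was upregulated past the threshold, beside 7.58% of all genes, so that this count was close to the background. In direction, 8 were higher and 5 lower, at a median of 0.17 on the log2 scale. The gene that rose was the tropomyosin gene Tpm3, which had 83.7, 79.8 and 138 CPM in the CTL libraries, against 211, 230 and 229 CPM in the Nelfb-/- libraries (log2 fold change 1.20, SE 0.23, limma, adjusted p = 0.020). The nonmuscle actin gene Actb had 1555 to 1827 CPM in CTL, against 3454, 2252 and 2519 CPM in the Nelfb-/- libraries (log2 fold change 0.70, SE 0.28, limma, adjusted p = 0.14). In Nelfb-/- replicate 1, Actb and Actg1 were at their highest and Acta2 and Actg2 at their lowest of the 6 libraries. Actb over Acta2 in CPM was 2.53 to 3.12 in CTL, against 11.1, 3.53 and 3.09 in the Nelfb-/- libraries (exact two-sided permutation test, p = 0.2).

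Among the regulators of the programme, Myocd, the coactivator most specific to smooth muscle, had 2.03, 3.45 and 7.75 CPM in the CTL libraries, against 3.13, 9.43 and 8.40 CPM in the Nelfb-/- libraries, with overlapping groups (log2 fold change 0.72, SE 0.61, limma, adjusted p = 0.46). Srf itself lay between 54.2 and 72.3 CPM in CTL and between 37.3 and 48.1 CPM in Nelfb-/- cells, without overlap (log2 fold change -0.63, SE 0.17, limma, adjusted p = 0.054). Its partners Mrtfa and Mrtfb had log2 fold changes of 0.61 (limma, adjusted p = 0.076) and 0.55 (limma, adjusted p = 0.20), and for both genes the Nelfb-/- libraries were all above the CTL libraries. Of the 15 regulators listed, 1 passed the threshold, beside 11.2% of all genes. It was Gata6, a transcription factor of vascular smooth muscle, which fell by 1.59 on the log2 scale (SE 0.34, limma, adjusted p = 0.027). The list had a median log2 fold change of 0.081.

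Of the 24 other cytoskeletal genes of smooth muscle, 18 were higher and 6 lower in Nelfb-/- cells, at a median of 0.26 on the log2 scale. Past the threshold, 2 of the 24 were upregulated, beside 7.58% of all genes, so that this count was close to the background. The 2 genes were Des and Synm, which encode the intermediate filament proteins desmin and synemin. Des had 2.29 to 3.33 CPM in CTL and 11.7 to 15.5 CPM in Nelfb-/- cells (log2 fold change 2.19, SE 0.23, limma, adjusted p = 0.0048), and it is also a gene of skeletal muscle. Synm rose by 1.29 (log2, SE 0.34, limma, adjusted p = 0.049). The 15 genes that control the phosphorylation of the light chain had a median of -0.046 on the log2 scale. Among them, the myosin phosphatase subunit Ppp1r12b lay under 2-fold with -0.74 (limma, adjusted p = 0.029).

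Myofibroblasts are also known for the matrix that they lay down. Of 19 such matrix genes, 17 were higher in Nelfb-/- cells, at a median of 1.21 on the log2 scale. Past the threshold, 4 were upregulated (Tnc, Fap, Ltbp2 and Fn1), beside 7.58% of all genes. In 7 genes all Nelfb-/- libraries lay above the CTL libraries, beside 22.0% of all genes, and in 12 the groups overlapped. Their sum was 20415, 19103 and 40947 CPM in the CTL libraries, against 32702, 64934 and 70200 CPM in the Nelfb-/- libraries, so that the groups overlapped in it. Tnc, which encodes the wound matrix protein tenascin C, had 103, 84.3 and 239 CPM in the CTL libraries, against 1439, 3195 and 3621 CPM in the Nelfb-/- libraries (log2 fold change 4.32, SE 0.51, limma, adjusted p = 0.0057). Fap, a surface protease of activated fibroblasts, rose by 2.51 on the log2 scale (SE 0.25, limma, adjusted p = 0.0042). Fn1, which encodes fibronectin, rose by 1.41 (SE 0.34, limma, adjusted p = 0.038). Whether the matrix and the contractile genes differed in their change was not tested.

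Markers of other cell types differed between the libraries. The summed level of 8 macrophage markers was 166 to 652 CPM in CTL, against 5166, 1649 and 2810 CPM in the Nelfb-/- libraries. Of the 8, 7 were upregulated, beside 7.58% of all genes. The macrophage sum was highest in Nelfb-/- replicate 1, where the contractile sum was lowest, yet both sums were higher in Nelfb-/- replicate 3 than in replicate 2. The summed level of 10 skeletal muscle markers was 11.6 to 14.4 CPM in CTL, against 99.9, 56.4 and 58.9 CPM in the Nelfb-/- libraries. Of the 8 skeletal markers tested, 7 were upregulated, among them Myh3 (log2 fold change 4.62, limma, adjusted p = 0.0075) and Acta1 (3.65 to 5.51 CPM in CTL and 19.2 to 27.5 CPM in Nelfb-/- cells). The 10 fibroblast markers summed to 4552 to 16890 CPM in CTL, against 7769, 23968 and 26237 CPM in the Nelfb-/- libraries, with 1 upregulated, Mfap5. The 10 pericyte and mural cell markers in the table summed to 377, 367 and 1213 CPM in the CTL libraries, against 434, 1237 and 1214 CPM in the Nelfb-/- libraries, with 0 past the threshold (limma) and 3 at an unadjusted p under 0.05. Different markers carried these sums, since Ndufa4l2 was at 515 CPM in CTL replicate 3 but 33.8 and 26.4 CPM in Nelfb-/- replicates 2 and 3, whereas Steap4 was at 268 CPM in the former and at 530 and 449.7 CPM in the latter. The 10 fat cell markers summed to 24986 to 43771 CPM in CTL and 18840 to 28833 CPM in Nelfb-/- cells, with 7 of 10 lower at a median log2 fold change of -0.91, Retn downregulated and Lep upregulated. No marker of these lists was at or under 3 reads in all 6 libraries. The part of these cells in the contractile values was not tested.

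**Figure D4:**
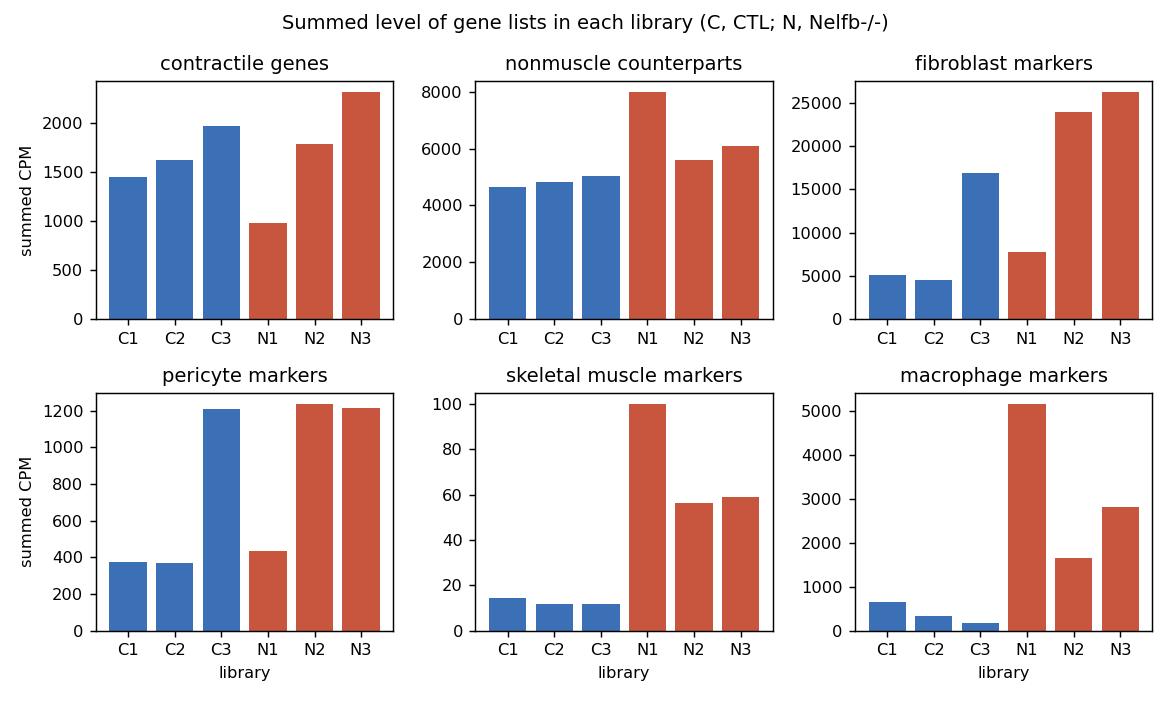
Summed CPM of 6 gene lists in each library, with CTL libraries in blue (C1 to C3) and Nelfb-/- libraries in red (N1 to N3), each axis starting at 0. The contractile sum is lowest in N1 at 981 CPM, where the macrophage sum is highest at 5166 CPM, and both sums are higher in N3 than in N2.

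The genes outside all lists whose log2 values followed the members most closely over the 6 libraries, by Pearson's r with the mean of the members' standardized values, were Fyb2 (r = 0.993), Efna3 (0.988), Phactr1 (0.987), Cntn2 (0.983) and Nkd1 (0.983). With 6 libraries and 16251 genes such values are a description of likeness. Fyb2 and Cntn2 rested on few reads in Nelfb-/- replicate 1, at 0.142 and 0.0948 CPM, where 3 reads were worth 0.142 CPM. Nkd1, a Wnt antagonist, had 12.1, 11.3 and 17.0 CPM in the CTL libraries, against 3.60, 12.7 and 19.1 CPM in the Nelfb-/- libraries. Phactr1, a protein that binds actin monomers and protein phosphatase 1, varied little, between 4.17 CPM in Nelfb-/- replicate 1 and 5.10 CPM in CTL replicate 3.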

How the data were processed

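RNA-seq libraries of 3 CTL and 3 Nelfb-/- cultures were analysed from a table in CPM that the authors deposited, normalized to the reads on all genes of the table without correction for gene length. Columns reached a sum of 1e+06 after removal of a constant of 0.0001. The submitters' processing notes name STAR (2.7), Partek (9.0.20.0202) and mm10. The read counter and its strand setting are not given in the sources used here. Steps between low values gave the worth of 1 read, and with it depths of 1.72e+07 to 2.94e+07 reads. Between 69.6% and 72.5% of values up to 20 reads lay within 0.02 of a whole read, so that no count model was used. CPM were brought to reads at the geometric mean depth, and limma (3.58.1, in R 4.3.3) was fitted with an abundance trend to log2(value + 1) of the 16251 genes averaging 10 reads (0.448 CPM) or more. This scale understates the change of genes near that minimum. Adjusted p-values are those of Benjamini-Hochberg over these genes, and the threshold was an adjusted p of at most 0.05 with at least 2-fold. Fitting was tested on simulated data.

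Exon lengths and Ensembl IDs come from GENCODE vM21 (GRCm38), whose starts and ends were those of the table for all 10 members. The rule for naming allowed the 10 members, their nonmuscle counterparts, Nelfb, Srf, Myocd, Mrtfa and Mrtfb. It also allowed up to 4 genes past the threshold from each of the other lists by size of change, and the 5 genes most alike in pattern. Not all nonmuscle counterparts, macrophage markers and skeletal muscle markers that it allowed are named in the text. A gene that this rule would name is not reported here. Adipoq, Plin1, Acta1, Ndufa4l2, Steap4, Pcsk7, Ppp1r12b and the ratios fall outside this rule and were chosen after their values were seen. The members and lists were chosen with earlier results of these data known. The alternatives were other pseudocounts, filters, scalings and variance models, a replicate block and the omission of each library.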

Additional observations from a re-analysis of the deposited data

How the results depend on the processing

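Of 160 member values under the alternatives, 149 kept their direction and their side of the threshold, 10 changed sign and 1, that of Lmod1 without Nelfb-/- replicate 3, came to pass it. The number of members past the threshold, and of members downregulated, ranged from 0 to 1 over the omissions of a library and was 0 under the other 10 alternatives, and no alternative gave an upregulated member. The adjusted p of Lmod1 stayed at or below 0.05 in 11 of 16 alternatives and lay between 0.029 and 0.12 (limma), with 0.053 without the abundance trend and 0.096 without moderation. Changes of sign came with omitted libraries: Acta2 (0.27) and Myl9 (0.046) without Nelfb-/- replicate 1, Actg2 without CTL replicate 3 (0.37) or Nelfb-/- replicate 1 (0.77), Tagln without CTL replicate 1 (-0.013), Nelfb-/- replicate 2 (-0.067) or Nelfb-/- replicate 3 (-0.21), and Cnn1 without CTL replicate 1 (-0.11) or Nelfb-/- replicate 3 (-0.31). Actg2 also turned with a pseudocount of 1 CPM (1.6e-04). With a library omitted the log2 fold change ran from -0.43 to 0.27 for Acta2, -0.54 to 0.77 for Actg2, -0.21 to 0.53 for Tagln, -0.31 to 1.23 for Cnn1, -0.50 to 0.046 for Myl9, -0.91 to -0.13 for Tpm2 and -0.88 to -0.33 for Mylk. None of these was past the threshold, and neither other scaling turned a member. All genes past the threshold numbered 1824, 684 gene by gene without moderation, and 426 (without Nelfb-/- replicate 3) to 2480 (without CTL replicate 3) with a library left out; the cause was not tested.

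Same-numbered libraries deviated together for replicates 1 (r = 0.52 across genes) and 3 (r = 0.52) and in opposite directions for replicates 2 (r = -0.39), so that the numbers were not taken to pair the libraries. With a replicate block 2175 genes and 0 members passed, and the adjusted p of Lmod1 was 0.039 (limma). With 3 libraries in a group and intervals as wide as those of Cnn1 and Actg2, some changes beyond 2-fold could be missed.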

Other observations

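Markers of keratinocytes and endothelial cells were scarce. Of 6 keratinocyte markers, 5 were in the table and 3 were tested, and their sum was 1.94 to 2.48 CPM in CTL, against 3.89, 12.0 and 13.3 CPM in the Nelfb-/- libraries. Krt14, a keratin of basal keratinocytes, was upregulated (log2 fold change 3.50, SE 0.79, limma, adjusted p = 0.031), with at most 5.06 CPM in any library. The 6 endothelial markers summed to 7.04 to 11.8 CPM in CTL, against 22.0, 8.44 and 10.4 CPM in the Nelfb-/- libraries, with 1 upregulated, Emcn. The endothelial sum was highest in Nelfb-/- replicate 1, the library with the lowest contractile sum, yet both sums were higher in Nelfb-/- replicate 3 than in replicate 2.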
